A study of Caenorhabditis elegans with 12 samples.

Results

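The comparison described here is that of Aβ RNAi with empty vector in worms that were all treated with the 5MER peptide. Its members are the 3 ABPS libraries and the 3 EVPS libraries, 6 of the 12 libraries of the study, and every one of the 19089 genes in the table was tested. The food of ABPS worms was a bacterial strain making double-stranded RNA of the Aβ sequence, and that of EVPS worms a strain with the empty vector (EV). The 6 remaining libraries, 3 of AB0S worms (Aβ RNAi) and 3 of EV0S worms (EV), come from animals that received M9 buffer in place of the peptide, and they serve here as the same RNAi comparison without the peptide. All 12 libraries are of strain CL2006, in which the *unc-54* promoter drives human Aβ in body wall muscle and a *rol-6* plasmid marks the transgenic animals, so worms on Aβ RNAi and worms on the empty vector carry the same transgene. The labels give the genotype of all libraries as WT. The worms were kept at 20 °C on their RNAi bacteria for a whole generation before the one that was sampled, and peptide or buffer was given daily from the first day of adulthood. RNA was taken from pools of whole worms at day 6 of adulthood, in 3 repeats of each group.

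Aβ is the peptide that aggregates in the brains of people with Alzheimer's disease, and in CL2006 its accumulation in muscle leads to paralysis as the animals age. In *C. elegans*, double-stranded RNA taken up from the food is cut into short RNAs that guide the destruction of matching transcripts. RNA-dependent RNA polymerases amplify this silencing. Cells answer misfolded proteins with chaperones, among them the small heat shock proteins, and with degradation by the proteasome and the lysosome. The question is which transcripts differ between worms with low and with high Aβ when both receive the peptide.

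The deposited values are counts per gene that the authors normalized with DESeq2 size factors and then corrected for the effect of the 3 repeats, and they are called normalized values below. They are no longer whole reads, so the depth of the libraries is unknown, and the sums of the values lay between 28115687 and 28841259 in ABPS, between 27421433 and 28214095 in EVPS, and between 24082771 and 29142842 over all 12 libraries. Human Aβ is not among the genes listed, and its level was not analysed here. The median SD of the log2 values within EV0S was 0.188, against 0.115 in ABPS, 0.101 in EVPS and 0.113 in AB0S. EV0S replicate 3 stood apart from the rest of its group. It scored 25.05 on principal component 1 (54.5% of the variance), against -36.8 and -33.9 in EV0S replicates 1 and 2. The AB0S libraries scored 44.9, 36.7 and 36.1, so EV0S replicate 3 lay nearer to them on this component. On principal component 2 it had the lowest score of the 12 libraries, -38.7. The 3 ABPS libraries were also unlike each other. Their scores on principal component 1 were -3.97, 26.3 and -24.2, whereas the EVPS libraries scored -21.9, -23.3 and -24.996. ABPS replicate 3 thus lay among the EVPS libraries on this component.

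Between ABPS and EVPS worms 52 of 19089 genes passed, or 0.272%, at a Benjamini-Hochberg adjusted p below 0.1 (limma on log2(normalized value + 1), with group and replicate number in the model). The expression of 41 of them (0.215% of the genes tested) was higher and that of 11 (0.0576%) was lower in ABPS. The genes that rose include 6 members of the secreted transthyretin-related family, the fatty acid carriers *lbp-2* and *far-6*, the saposin-like *spp-10* and the muscle genes *tni-3* and *unc-95*. The genes that fell include *rol-6* and the small heat shock gene *hsp-16.2*. All 52 changed in 1 direction in the 3 same-numbered pairs, and in all 52 the ABPS and EVPS libraries did not overlap, which is also true of 31.3% of all genes tested. The changes were small: the median log2 fold change was 0.69 for the genes that rose (range 0.32 to 1.99) and -0.40 for those that fell (range -2.02 to -0.30), and 4 genes changed by at least 2-fold. At an unadjusted p below 0.05 there were 3018 genes, 1421 higher (7.44%) and 1597 lower (8.37%), and the median log2 fold change over all genes was 0.003. The called genes were spread over the chromosomes, with 14 of 4313 genes on chromosome V, 9 of 2657 on X, and 5 to 8 on each of the other autosomes. Exons of 3 called genes overlap a gene on the same strand, and those of 12 overlap one on the opposite strand.

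**Figure D1:**
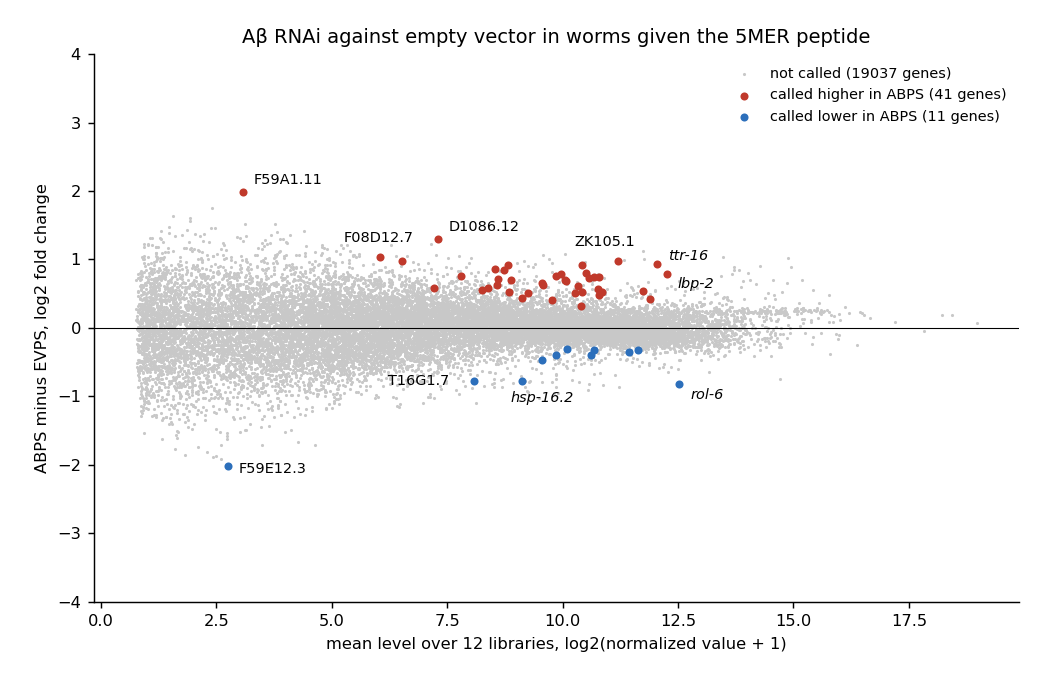
Log2 fold change of ABPS minus EVPS (vertical axis) against the mean level over the 12 libraries, log2(normalized value + 1) (horizontal axis), for 19089 genes, of which 19037 were not called (grey). The 41 genes called higher (red) lie between 0.32 and 1.99 and the 11 called lower (blue) between -2.02 and -0.30, and F59A1.11 and F59E12.3 are the called genes with the lowest levels.

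Genes related to the transgene of the strain were looked at first. Of these, *rol-6* is on its marker plasmid, *unc-54* lends its promoter, and *apl-1* is an endogenous gene. Normalized values of *rol-6*, a cuticle collagen whose mutant form on the marker plasmid makes the animals roll, were 4339.8, 4140.3 and 4410.1 in ABPS worms and 7305, 7527 and 8002 in EVPS worms. Its endogenous copy (chromosome II, 8733050 to 8734239, WBcel235) and the copies on the transgene are not told apart in these values. *rol-6* changed in ABPS by -0.82 on the log2 scale (limma adjusted p = 0.0376, standard error 0.11), and every ABPS library was below every EVPS library, as in every gene called lower. Without the peptide the values were 2949.7, 2959.6 and 3182 in AB0S and 9579, 9440.1 and 7109 in EV0S worms, a log2 fold change of -1.51 (adjusted p = 0.00147). The decrease was smaller with the peptide, and this difference, 0.69 on the log2 scale (standard error 0.15), passed as well (limma adjusted p = 0.0831). The muscle myosin heavy chain *unc-54*, whose promoter drives Aβ, had 50716, 43651 and 63163 in ABPS and 65469, 67516 and 70981 in EVPS, and it did not pass (log2 fold change -0.39, adjusted p = 0.415). The same is true of *apl-1*, the worm relative of the amyloid precursor protein, with 8184, 8831 and 8257 in ABPS and 6840.4, 7174 and 7338 in EVPS (log2 fold change 0.24, limma adjusted p = 0.231). Each ABPS library was below each EVPS library in *unc-54* too. Without the peptide the median log2 fold change over these 3 genes was -0.75, and -1.11 to -0.57 with 1 EV0S library left out. There 2 of the 3 were called lower in AB0S, beside 8.26% of all genes.

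Heat shock genes were examined next. *hsp-16.2*, a small heat shock protein that binds unfolded proteins and is raised by heat and by aggregating proteins, had 362, 384 and 358 in ABPS worms, against 555, 561 and 799.6 in EVPS worms. It changed in ABPS by -0.77 on the log2 scale (limma adjusted p = 0.0987, standard error 0.14), with the 3 ABPS libraries close together and EVPS replicate 3 above the other EVPS libraries. Without the peptide it had 376, 424 and 339.6 in AB0S and 834, 851 and 795 in EV0S (log2 fold change -1.13, adjusted p = 0.0165), and the effects with and without the peptide did not differ past the threshold (difference 0.35, adjusted p = 0.364). Of the 14 small heat shock genes measured, *hsp-16.2* was the only one that passed. At an unadjusted p below 0.05, 3 (21.4%) were lower and 4 (28.6%) higher, beside 8.37% and 7.44% of all genes. The 3 lower ones were all *hsp-16* genes, which were picked out after their values were seen and share much of their sequence. *hsp-16.41* had 545, 479.7 and 433 in ABPS and 828, 877 and 1116 in EVPS (log2 fold change -0.94, adjusted p = 0.162). *hsp-16.11* had 221, 272 and 256 in ABPS and 337, 337 and 543 in EVPS (log2 fold change -0.67, adjusted p = 0.195). On the higher side stood *hsp-17*, with 682, 569 and 708 in ABPS and 463, 491 and 472 in EVPS (log2 fold change 0.45, limma adjusted p = 0.182), so the family did not move in one direction. Among 15 larger chaperones, 0 passed, with 2 (13.3%) higher and 1 (6.67%) lower at an unadjusted p below 0.05. The lower one was *hsp-70*, with 811, 722 and 810.3 in ABPS and 926, 935 and 1421 in EVPS (limma adjusted p = 0.264), and the endoplasmic reticulum chaperone *hsp-4* had 13508, 13475 and 13369 in ABPS and 13679, 14098 and 14892 in EVPS (adjusted p = 0.616).

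The largest family among the genes that rose was that of the transthyretin-related genes, which code for small proteins with a signal for secretion. *ttr-16* had the smallest p of all genes: its normalized values were 5921, 6574 and 5307 in ABPS worms and 3082, 2968 and 3237 in EVPS worms, which is 0.93 on the log2 scale (limma adjusted p = 0.0105, standard error 0.09). Its exons overlap 1 gene on the opposite strand. *ttr-25* had 577, 642 and 582 in ABPS and 289, 306 and 359 in EVPS (log2 fold change 0.92, adjusted p = 0.0765), and *ttr-24*, its neighbour on chromosome V, had 1348, 1382 and 1289.8 in ABPS and 841, 797 and 849 in EVPS (log2 fold change 0.69, adjusted p = 0.0105). The annotation (WBcel235) places *ttr-24* at 18555387 to 18556643 and *ttr-25* at 18556714 to 18558099, on opposite strands. In each of these genes, as in every gene called higher, the lowest ABPS library was above the highest EVPS library. *ttr-6* had 1205, 1427 and 1037 in ABPS and 704, 688 and 755 in EVPS (log2 fold change 0.76, adjusted p = 0.0527). *ttr-5* had 455, 537 and 418 in ABPS and 273, 264 and 323 in EVPS (log2 fold change 0.71, adjusted p = 0.0798), and *ttr-47* had 1416, 1463 and 1253 in ABPS and 827, 786 and 966 in EVPS (log2 fold change 0.68, limma adjusted p = 0.0798). Within ABPS, replicate 2 was the highest and replicate 3 the lowest for *ttr-16*, *ttr-24*, *ttr-6*, *ttr-5* and *ttr-47*. In *ttr-25* replicate 2 was also the highest.

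The family was chosen as a group after its values were seen. Of its 57 measured members, 6 passed on the higher side and 0 on the lower side, where 0.215% and 0.0576% of all genes passed. At an unadjusted p below 0.05, 18 members (31.6%) were higher and 0 were lower, beside 7.44% and 8.37% of all genes. The median log2 fold change over the family was 0.24 with the peptide and -0.08 without it, where 5 members (8.77%) were called higher and 9 (15.8%) lower in AB0S, beside 2.82% and 8.26% of all genes. Members of this family resemble each other in sequence, and how reads that match several of them were counted is not given in the sources used here.

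Carriers and enzymes of lipids were also among the genes that rose. *lbp-2*, a fatty acid binding protein that is secreted, had 6451, 6899.7 and 5731 in ABPS worms and 3581, 3539 and 3870.4 in EVPS worms, which is 0.79 on the log2 scale (limma adjusted p = 0.0105, standard error 0.08). *far-6*, a fatty acid and retinol binding protein, had 2304, 2691 and 1953 in ABPS and 1333, 1304 and 1503 in EVPS (log2 fold change 0.74, adjusted p = 0.071). *heh-1*, a relative of the secreted cholesterol-binding protein NPC2 of mammals, had 2117, 2313 and 1964 in ABPS and 1211, 1225 and 1373 in EVPS (log2 fold change 0.75, adjusted p = 0.0125). In all of these ABPS replicate 2 was the highest, and the ABPS libraries lay above the EVPS libraries, as in every gene called higher. Of the 17 *far* and *lbp* genes, a group chosen after its values were seen, 2 passed. Beside 7.44% and 8.37% of all genes, 7 (41.2%) were higher and 0 lower at an unadjusted p below 0.05. These include *lbp-3*, with 1573, 1711 and 1273 in ABPS and 912, 892 and 1029 in EVPS (adjusted p = 0.139), and the abundant carrier *far-2*, with 54704, 61129.7 and 52147 in ABPS and 38242, 37489.5 and 38425 in EVPS (adjusted p = 0.159), neither of which passed.

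Of 59 genes listed for fatty acid metabolism, 3 passed, all on the higher side, where 0.215% of all genes passed. The 3 are *lbp-2*, *lipl-7* and *ech-7*. *lipl-7*, which codes for a lipase-like protein, had 573, 640.2 and 543 in ABPS and 344, 342 and 397 in EVPS (log2 fold change 0.70, limma adjusted p = 0.0659). *ech-7*, an enoyl-CoA hydratase of fatty acid oxidation, had 1918, 2067 and 1962 in ABPS and 1329, 1259 and 1556 in EVPS (log2 fold change 0.53, adjusted p = 0.0987). The shares of the list at an unadjusted p below 0.05 were 16.9% higher and 5.08% lower, beside 7.44% and 8.37% of all genes. The 6 vitellogenins, the yolk proteins that carry lipid to the oocytes, did not pass: *vit-2* had 362286, 414675 and 378312 in ABPS and 317531, 315363 and 386955 in EVPS (adjusted p = 0.678).

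Further genes that rose are put side by side here for what they are known to do, by a choice made among the called genes and with no list or test behind it. *spp-10* codes for a saposin-like protein, a class that helps lysosomal enzymes to reach lipids, and had 4321, 4633 and 4105 in ABPS against 3186, 3240.4 and 3302 in EVPS (log2 fold change 0.42, limma adjusted p = 0.0761). *gba-3*, a glucocerebrosidase, had 966, 1049 and 814 in ABPS and 589, 586 and 646 in EVPS (log2 fold change 0.63, adjusted p = 0.0987). *pcp-5*, which resembles lysosomal prolyl carboxypeptidase, had 1657, 1843 and 1518 in ABPS and 1119, 1141 and 1213 in EVPS (log2 fold change 0.53, adjusted p = 0.061). In these 3 genes, as in every gene called higher, each ABPS library lay above each EVPS library. *pho-14*, of the acid phosphatase family, had 2020.3, 2241 and 1967 in ABPS and 1445, 1479 and 1548 in EVPS (log2 fold change 0.48, adjusted p = 0.0936), and the galectin *lec-5* had 4221, 4940.2 and 3562 in ABPS and 2906, 2840.3 and 2919 in EVPS (log2 fold change 0.54, limma adjusted p = 0.0964). None of these genes is in the list of autophagy and lysosome genes, and 0 of that list's 53 members passed. At an unadjusted p below 0.05, 3 (5.66%) were higher and 7 (13.2%) lower, beside 7.44% and 8.37% of all genes. The list had a median log2 fold change of 0.06. Its members with the smallest p in each direction were the proton pump subunit *vha-5*, with 4537, 4637 and 4724 in ABPS and 3043, 3029.9 and 4019 in EVPS (adjusted p = 0.199), and the autophagy gene *atg-18*, with 4466, 4399.6 and 4476 in ABPS and 5155, 5303 and 4868 in EVPS (limma adjusted p = 0.184).

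Muscle is the tissue that makes Aβ in this strain, and 2 of 57 body wall muscle genes passed, both higher, beside 0.215% of all genes. *tni-3*, a troponin I that holds back contraction until calcium rises, had 1788, 1583 and 1788 in ABPS worms and 1082, 1096 and 1209 in EVPS worms, which is 0.61 on the log2 scale (limma adjusted p = 0.0979, standard error 0.11). Its values were 1192, 1175 and 1236 in AB0S and 1181, 1191 and 911 in EV0S, so the ABPS libraries stood above all libraries of the 3 other groups. *unc-95*, a LIM domain protein of the dense bodies that anchor the sarcomere, had 749, 731 and 719.7 in ABPS and 495, 519 and 529 in EVPS (log2 fold change 0.51, adjusted p = 0.0621). Outside the list, *twk-18*, a potassium channel of body wall muscle, had 545, 572 and 512 in ABPS and 397, 359.8 and 369 in EVPS (log2 fold change 0.53, limma adjusted p = 0.0798). At an unadjusted p below 0.05, 15 of the muscle genes (26.3%) were higher and 2 were lower, beside 7.44% and 8.37% of all genes. The lowest fold change of the list was that of *unc-54*, given above. Over the list the median log2 fold change was 0.16 with the peptide and -0.20 without it, where 0 members were called higher and 5 (8.77%) lower, close to the 8.26% of all genes. That median was -0.31 without EV0S replicate 3, whose mean log2 level of these genes was 11.45, against 11.73 and 11.74 in EV0S replicates 1 and 2, and -0.13 and -0.12 without either of those. None of the muscle markers was at 0 in any ABPS or EVPS library, and their mean log2 level was 11.6, 11.6 and 11.7 in ABPS and 11.5, 11.5 and 11.5 in EVPS. In RNA of whole worms, fewer cells of a type and less RNA per cell cannot be told apart.

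**Figure D2:**
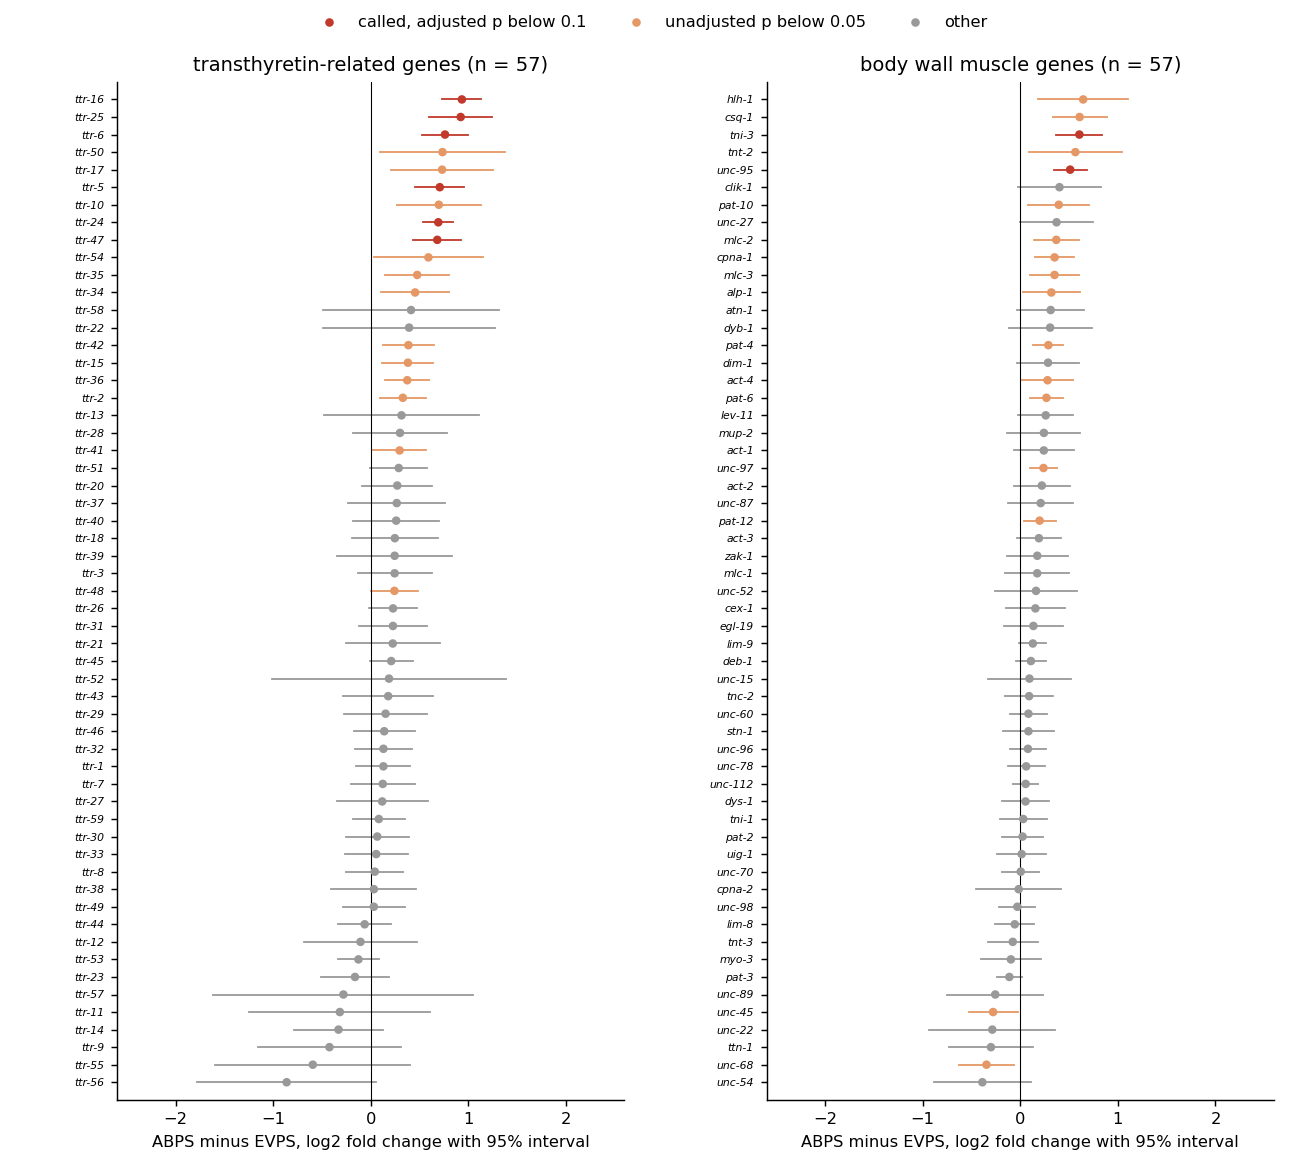
Log2 fold change of ABPS minus EVPS with its 95% interval (horizontal axis) for the 57 transthyretin-related genes (left) and the 57 body wall muscle genes (right), one gene per line. The 6 called transthyretin-related genes (red) lie between 0.68 and 0.93, the called muscle genes *tni-3* and *unc-95* at 0.61 and 0.51, and *unc-54* at -0.39.

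The called genes *lgc-34*, *wrk-1* and *zig-7* are put together here by a choice made among the called genes. The neuron and neuropeptide lists hold none of them. *lgc-34*, a ligand-gated ion channel, had 416, 389.8 and 391 in ABPS and 255, 258 and 289 in EVPS (log2 fold change 0.58, limma adjusted p = 0.071). *wrk-1*, an immunoglobulin superfamily protein that guides axons, had 1485, 1473 and 1507 in ABPS and 1205, 1166 and 1204 in EVPS, a rise of 0.32 that was the smallest among the genes called higher (adjusted p = 0.0798). *zig-7*, a secreted protein with immunoglobulin domains, had 522, 570.2 and 518 in ABPS and 282, 278 and 342 in EVPS (log2 fold change 0.84, adjusted p = 0.0169). Of 140 neuropeptide and insulin-like genes 0 passed. At an unadjusted p below 0.05, 38 (27.1%) were higher and 4 (2.86%) lower, beside 7.44% and 8.37% of all genes. The median log2 fold change over the 140 genes was 0.28 (without the peptide 0.09). The one with the smallest p was *nlp-49*, with 1045, 1049 and 986 in ABPS and 614, 614 and 835 in EVPS (log2 fold change 0.59, adjusted p = 0.139), followed by *nlp-6* with 309.5, 336 and 301 in ABPS and 203, 216 and 246 in EVPS (limma adjusted p = 0.155). Of 43 synaptic and transmitter genes 0 passed, and 8 (18.6%) were higher and 1 (2.33%) lower at an unadjusted p below 0.05.

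Genes called higher that are given without a role, most of them with only a sequence name, come next. ZC581.3 had 453, 485 and 465 in ABPS and 291, 303 and 314 in EVPS (log2 fold change 0.63, limma adjusted p = 0.0172). F10G2.1 had 888, 1053 and 880.4 in ABPS and 581, 586 and 621 in EVPS (log2 fold change 0.65, adjusted p = 0.0313). ZK809.8 had 1981, 1574 and 2093 in ABPS and 996, 977 and 1269.5 in EVPS (log2 fold change 0.80, adjusted p = 0.0527). In each of them, as in every gene called higher, the lowest ABPS library lay above the highest EVPS library. ZK809.8 differs from the others in that its ABPS replicate 2 was the lowest. Y53H1B.2 had 1924, 2257 and 1721 in ABPS and 1122, 1135 and 1283 in EVPS (log2 fold change 0.73, adjusted p = 0.061). *lido-8*, whose exons overlap 1 gene on each strand, had 1529, 1600.4 and 1355 in ABPS and 1031, 1032 and 1083 in EVPS (log2 fold change 0.51, limma adjusted p = 0.0527). Among the called genes whose mean over the 12 libraries reaches 10, the largest rises were those of D1086.12 and F08D12.7. D1086.12 had 208, 221 and 210.0 in ABPS and 90.4, 77.5 and 89.8 in EVPS (log2 fold change 1.30, adjusted p = 0.0987). F08D12.7 had 95.6, 96.2 and 70.7 in ABPS and 40.0, 45.7 and 39.7 in EVPS (log2 fold change 1.04, adjusted p = 0.0913).

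Further genes that rose were close to the threshold. *exc-13* had 115.1, 133 and 122.5 in ABPS and 56.7, 63.1 and 66.6 in EVPS (log2 fold change 0.98, limma adjusted p = 0.0979), and ZK105.1 had 3151, 3739 and 2591 in ABPS and 1559, 1461 and 1747 in EVPS (log2 fold change 0.98, adjusted p = 0.0942). F37H8.5, whose exons overlap 1 gene on its own strand, had 1869.9, 2070.2 and 1732 in ABPS and 978, 949 and 1081 in EVPS (log2 fold change 0.91, adjusted p = 0.0896). In all of them, as in every gene called higher, the highest EVPS library stayed below the lowest ABPS library. The fold changes of W03G11.3, F25E2.2, K02F3.9 and C50F2.4 were 0.76, 0.79, 0.86 and 0.55 on the log2 scale. F59A1.11 had the largest rise of all called genes, a log2 fold change of 1.99, at levels of 13.3, 9.59 and 8.60 in ABPS and 1.14, 2.78 and 1.86 in EVPS, and its log2 fold change lay between 1.16 and 2.44 over the alternatives.

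Of the 11 genes that fell, *rol-6* and *hsp-16.2* were described above, and F59E12.3 had low values, with 2.73, 1.06 and 1.61 in ABPS and 7.92, 8.79 and 14.3 in EVPS (log2 fold change -2.02, limma adjusted p = 0.0979). The other 8 had fold changes between -0.78 and -0.30 on the log2 scale. T16G1.7 had 199.5, 216 and 159.9 in ABPS and 340.3, 319 and 321 in EVPS (adjusted p = 0.0987), and it overlaps 1 gene on the opposite strand. C50E3.12 had 660.1, 657 and 669.6 in ABPS and 977, 996 and 803 in EVPS (log2 fold change -0.48, adjusted p = 0.0987). Both, like every gene called lower, were lower in every ABPS library than in any EVPS library. Y4C6A.3 had 872, 839.6 and 864 in ABPS and 1192, 1175 and 1041 in EVPS (log2 fold change -0.40, adjusted p = 0.0979). *cil-1*, a phosphatase of phosphoinositides, had 1393, 1318 and 1495 in ABPS and 1931, 1879 and 1719 in EVPS (log2 fold change -0.39, limma adjusted p = 0.0896). T23B12.6 had 2477, 2407 and 2624 in ABPS and 3199.6, 3276 and 3066 in EVPS (log2 fold change -0.35, adjusted p = 0.0816). The remaining 3 were *rlbp-1* (-0.32), T21C9.13 (-0.32) and R11A8.1 (-0.30). Next in order of p on the lower side among genes changed 1 way in all pairs, and not past the threshold, were R01E6.2, with 16.9, 12.61 and 18.5 in ABPS and 34.3, 40.2 and 37.6 in EVPS (adjusted p = 0.109), and T09B9.1, with 853, 845 and 886 in ABPS and 1128.8, 1147 and 1016 in EVPS (limma adjusted p = 0.111).

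The effect of Aβ RNAi with the peptide was then set beside that without it, which shares no library with it. Between AB0S and EV0S worms 2114 genes passed in the same fit, 538 higher (2.82%) and 1576 lower (8.26%), although 15 passed without EV0S replicate 1, 10 without EV0S replicate 2 and 6524 without EV0S replicate 3. The count was 173, 209 and 247 without AB0S replicates 1, 2 and 3, 1019 without ABPS replicate 1, 1273 without EVPS replicate 1 and 1180 without EVPS replicate 2. Of the 41 genes that rose with the peptide, 33 had the same direction without it, 21 were also called there in that direction, and the median log2 fold change was 0.38, against 0.69 with the peptide. Of the 11 that fell, 3 had the same direction without the peptide and 2, *rol-6* and *hsp-16.2*, were also called, while 4 were called in the opposite direction. Genes that changed in both settings include *ttr-25* (log2 fold change 0.92 with the peptide and 0.93 without), *exc-13* (0.98 and 1.21), ZK105.1 (0.98 and 0.94), *lipl-7* (0.70 and 0.76) and *zig-7* (0.84 and 0.65). In *ttr-16* the values were 4674, 4607 and 4913 in AB0S and 3400.2, 3294 and 2808 in EV0S, a log2 fold change of 0.58 (adjusted p = 0.0192), and the effects with and without the peptide did not differ past the threshold (difference 0.35, limma adjusted p = 0.199). Across the 15516 genes whose mean value reaches 10, the fold changes of the RNAi with and without the peptide correlated with a Pearson r of 0.493 and a Spearman rho of 0.275, given as a description, since genes are not independent and the authors' correction for the repeats was made over all libraries.

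The difference between the RNAi effects was tested in the same fit, and 569 genes (2.98%) passed, 116 with a difference above 0 and 453 below 0. This balance turned without EV0S replicate 3, with 2949 above and 1959 below 0. The test made 0 calls without ABPS replicate 1 or 2, EVPS replicate 1 or 2, any AB0S replicate, or EV0S replicate 1 or 2 (2215 to 3552 genes at an unadjusted p below 0.05), and 4908 without that library. Of the 52 genes called between ABPS and EVPS, 17 passed this test as well, a count that is not independent of their choice because both use the ABPS and EVPS libraries. They were 8 of the genes that rose and 9 of those that fell, and in 16 of the 17, all but *rol-6*, the RNAi effect had the opposite sign without the peptide. In those 16 genes the EVPS group held the lowest mean of the 4 groups where ABPS was higher, and the highest mean where ABPS was lower. Y51F10.7 is the clearest of these by p: it had 2100.1, 2041 and 1956 in ABPS and 1316, 1376 and 1409 in EVPS (log2 fold change 0.57, adjusted p = 0.0125), but 1704, 1575 and 1636 in AB0S and 1863, 1939.5 and 2026 in EV0S (log2 fold change -0.25, adjusted p = 0.0553), a difference of 0.82 (limma adjusted p = 0.0545). Y4C6A.3 is a case in the other direction, with 938, 952 and 973 in AB0S and 719.7, 784 and 777 in EV0S (log2 fold change 0.33) and a difference of -0.73 (adjusted p = 0.0707). In the muscle gene *unc-95* the difference was 0.63, from 621, 517 and 579 in AB0S and 622, 627 and 612 in EV0S beside the values with the peptide given above (adjusted p = 0.0707). The RNAi effect on *tni-3* did not differ past the threshold (difference 0.46, limma adjusted p = 0.161).

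**Figure D3:**
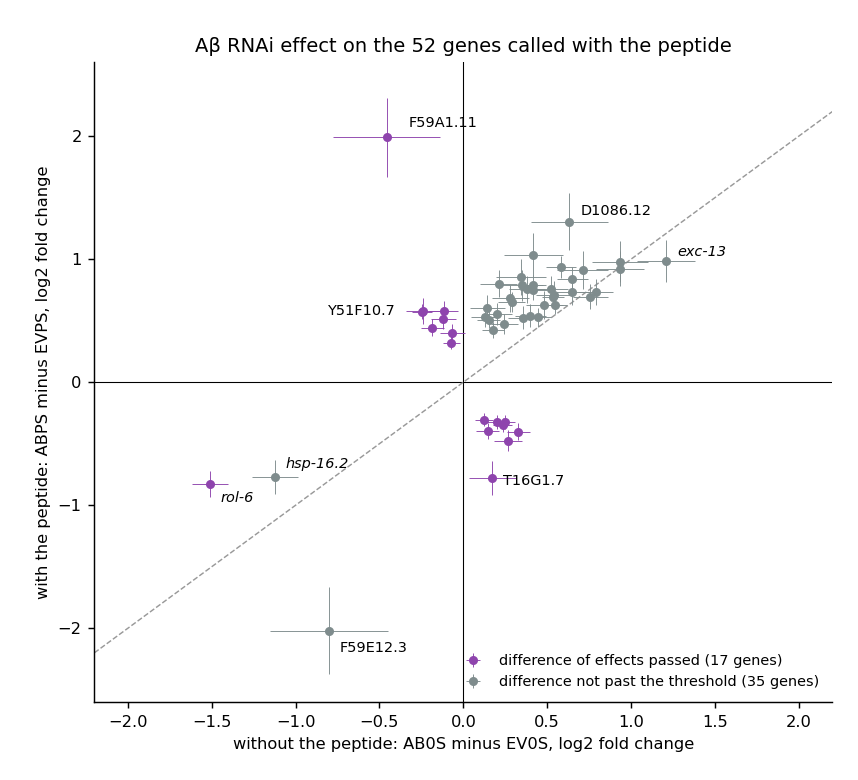
Log2 fold change of Aβ RNAi with the peptide (vertical axis, ABPS minus EVPS) against that without it (horizontal axis, AB0S minus EV0S) for the 52 genes called with the peptide. Bars are standard errors and the dashed line marks equal effects. The 17 genes whose difference passed are purple, and all of them but *rol-6* lie in the quadrants of opposite sign.

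Of the 569 genes, 552 were not among the 52. Those with the smallest p include *dod-3*, a target of the FOXO factor DAF-16, which had 168, 171 and 137.1 in ABPS and 194, 186 and 233 in EVPS (log2 fold change -0.36, not called), against 268, 229 and 276 in AB0S and 147, 129 and 117 in EV0S (log2 fold change 0.97, adjusted p = 0.0167), a difference of -1.33 (limma adjusted p = 0.0707). *cnc-8*, of a family of antimicrobial peptides, had 588, 616 and 559 in ABPS and 484, 466 and 521 in EVPS, but 409, 432 and 407 in AB0S and 616, 603 and 522 in EV0S (difference 0.74, adjusted p = 0.0707). AB0S had the highest mean of the 4 groups in *dod-3* and the lowest in *cnc-8*, where its libraries lay below all others, while in *dod-3* they overlapped EVPS replicate 3. C15F1.1 and T01D1.4 had log2 fold changes of 0.17 and 0.06 with the peptide and of -0.63 and -0.53 without it, and *cup-15* had -0.19 with and 0.36 without (differences 0.80, 0.59 and -0.54).

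**Figure D4:**
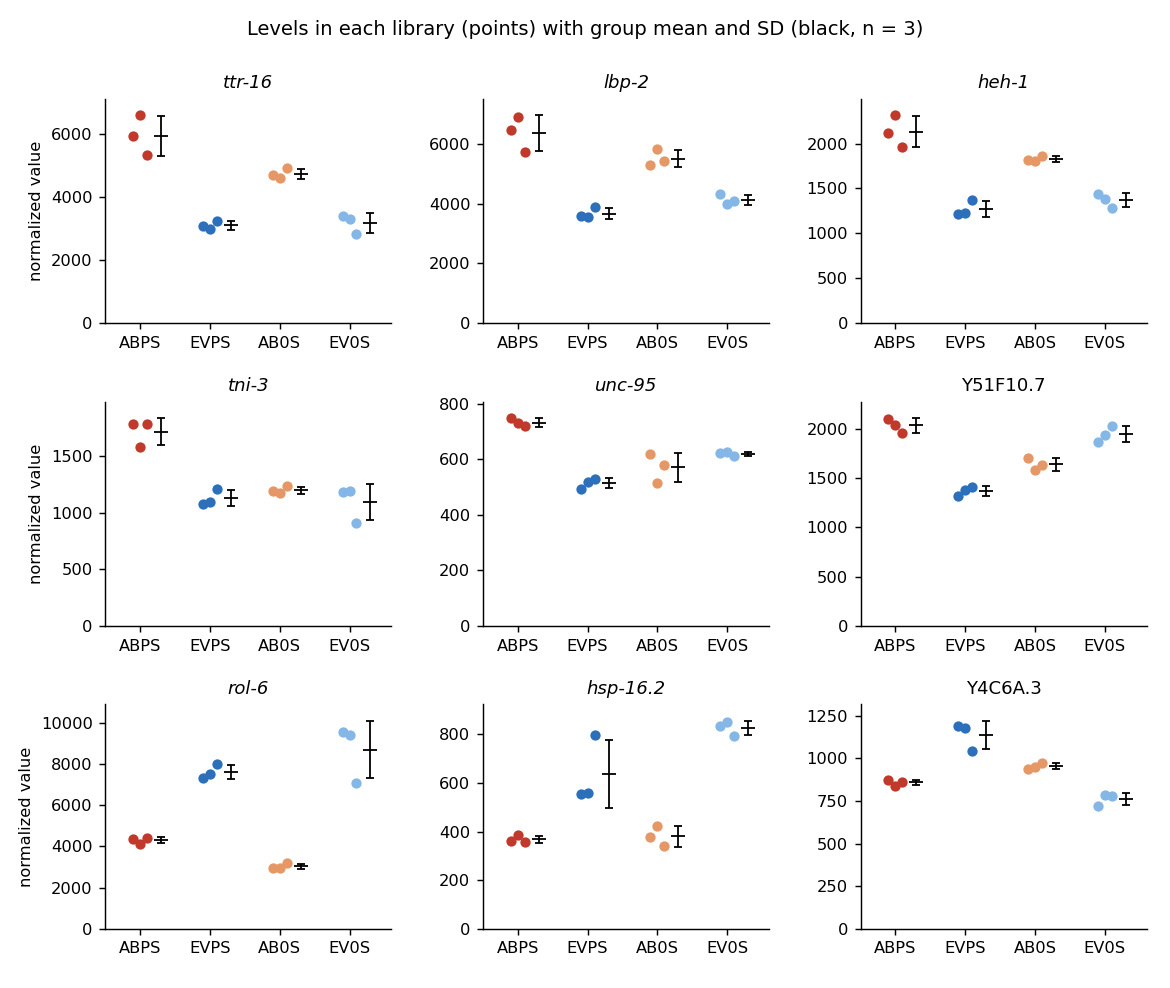
Normalized values of 9 called genes in each library of the ABPS, EVPS, AB0S and EV0S groups (points, vertical axes from 0), with group mean and SD in black (n = 3). In *ttr-16*, *lbp-2* and *heh-1* both RNAi groups lie above their EV groups, in *tni-3* ABPS alone is high, in Y51F10.7 and Y4C6A.3 the RNAi effect turns with the peptide, and *rol-6* and *hsp-16.2* are low in both RNAi groups.

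Lists of genes for the RNAi response itself, the germline, the embryo and the cuticle were counted in the same way, and 0 of their members passed. The cuticle list holds the *col* genes and leaves out *rol-6*. Of 56 genes of the RNA interference machinery, 17 (30.4%) were lower and 1 higher in ABPS at an unadjusted p below 0.05, beside 8.37% and 7.44% of all genes, with a median log2 fold change of -0.11 (-0.07 without ABPS replicate 1), and of 0.06 in worms without the peptide (0.02 without EV0S replicate 3 and 0.10 without EV0S replicate 1). *sid-1*, the channel that takes double-stranded RNA into cells, had 2101, 2109.9 and 2292 in ABPS and 2958, 2989 and 2549.8 in EVPS (log2 fold change -0.38, adjusted p = 0.133). *rrf-1*, an RNA-dependent RNA polymerase of somatic silencing, had 3467, 3554 and 3759.8 in ABPS and 4310.2, 4569 and 4318 in EVPS (log2 fold change -0.29, limma adjusted p = 0.159). For both, the difference from the effect without the peptide passed (-0.67 for *sid-1*, adjusted p = 0.0707, and -0.48 for *rrf-1*, adjusted p = 0.0775). Oocyte and eggshell genes had 16 of 44 members (36.4%) lower and 2 (4.55%) higher at an unadjusted p below 0.05. The 2 higher ones were the eggshell genes *perm-2* and *perm-4*, with 29123, 32915 and 24864 for *perm-2* in ABPS and 21343, 21476 and 21893 in EVPS. P granule genes had 5 of 16 (31.25%) lower and 0 higher, and meiosis and cell division genes 10 of 53 (18.9%) lower and 0 higher. The medians of these 3 germline lists were -0.15, -0.17 and -0.09 with the peptide, and 0.12, 0.002 and 0.10 without it. Leaving out EV0S replicate 3 made the medians without the peptide 0.06, -0.12 and 0.02.

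Genes that are switched on in embryos stood on the other side. Of 41 zygotic genes, 12 (29.3%) were higher and 1 lower in ABPS at an unadjusted p below 0.05, and the median log2 fold change was 0.54 with the peptide (0.27 when ABPS replicate 2 is left out) and 0.36 without it. Without the peptide, EV0S replicate 3 had a mean log2 level of these genes of 7.69, above the 3 AB0S libraries (7.58 to 7.65) and above EV0S replicates 1 and 2 (7.08 and 7.06), and the median was 0.62 without it and 0.22 and 0.19 without EV0S replicates 1 and 2. Their mean log2 level was 7.37, 7.61 and 7.26 in the ABPS libraries and 6.93, 6.96 and 7.03 in the EVPS libraries, with 0 members at 0, so the groups did not overlap in this mean. The groups do not overlap in 31.3% of all genes tested either. *end-1*, a GATA factor that specifies the endoderm, had 14.3, 22.4 and 14.4 in ABPS and 3.84, 4.17 and 8.42 in EVPS (log2 fold change 1.52, adjusted p = 0.162). ABPS replicate 2 was the highest for this list, as it was for *ttr-16*, *lbp-2* and *heh-1*, and the part of embryos inside the worms in those changes was not tested. Major sperm protein genes gave 0 of 32 past an unadjusted p of 0.05, and their mean log2 level was 7.96, 6.93 and 8.33 in ABPS and 7.67, 7.77 and 8.22 in EVPS, with ABPS replicate 2 below all the others. The median over these genes was -0.11, but 0.37 without ABPS replicate 2, -0.20 without ABPS replicate 1, -0.50 without ABPS replicate 3, -0.35 without EVPS replicate 1 and 0.08 without EVPS replicate 3. In worms without the peptide it was -1.32 (-1.98 without EV0S replicate 3), with 15 genes called lower in AB0S. The 153 cuticle collagens had a median of -0.34 (-0.12 without ABPS replicate 2 and -0.57 without ABPS replicate 3), with 11 higher (7.19%) and 14 lower (9.15%) at an unadjusted p below 0.05, shares near the 7.44% and 8.37% of all genes. Without the peptide the median was -0.98, and 76 (49.7%) were called lower, beside 8.26% of all genes. The summed normalized value of the collagens went the other way from the median with the peptide, at 586111, 573616 and 621731 in ABPS and 393537, 373516 and 495049 in EVPS. The collagen *col-119* was among the higher ones, with 44792, 52403 and 40989 in ABPS and 20317, 18090.4 and 31748 in EVPS (limma adjusted p = 0.22).

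Genes of protein synthesis and respiration had fold changes mostly above 0, with 0 past the threshold. Of 80 cytosolic ribosomal protein genes 79 had a fold change above 0, beside 9628 of all 19089 genes. At an unadjusted p below 0.05, 28 of the 80 (35%) were higher, beside 7.44% of all genes. Their median was 0.25, and 0.19, 0.17 and 0.38 without EVPS replicates 1, 2 and 3. It became 0.11 after quantile normalization. Without the peptide their median was -0.14 (-0.04 without EV0S replicate 1 and -0.28 without EV0S replicate 3). *rps-16* had 23343, 24095 and 22268 in ABPS and 17750.4, 16962 and 21749.9 in EVPS (adjusted p = 0.23), with EVPS replicate 3 nearer to ABPS than EVPS replicates 1 and 2. The 46 nuclear genes of oxidative phosphorylation had 45 above 0 and 12 (26.1%) higher at an unadjusted p below 0.05. Their median was 0.22 with the peptide and -0.12 without it (-0.02, -0.06 and -0.28 without EV0S replicates 1, 2 and 3). *cyc-2.1*, a cytochrome c, had 11399, 11727 and 11158 in ABPS and 8887, 8558 and 10301 in EVPS (limma adjusted p = 0.195). Genes of the TOR, insulin and AMPK pathways that sense nutrients had 9 of 30 (30%) lower and 1 higher at that level, beside 8.37% and 7.44% of all genes. Their median was -0.09 with the peptide and 0.10 without it. Among them *rict-1*, a subunit of TOR complex 2, had 5503, 5413 and 6097 in ABPS and 7107, 7289 and 6577 in EVPS (adjusted p = 0.162), and the insulin receptor *daf-2* had 5314, 5353 and 6160.5 in ABPS and 7159, 7652 and 6409.7 in EVPS (limma adjusted p = 0.178).

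In protein degradation, 0 of 33 proteasome subunits had an unadjusted p below 0.05, and 30 of them had a fold change above 0, beside 9628 of all 19089 genes. Of 358 F-box genes, adaptors of ubiquitin ligases, 39 (10.9%) were higher and 17 (4.75%) lower at that level, and of 253 nuclear hormone receptors 17 (6.72%) and 5 (1.98%). Beside the 7.44% and 8.37% of all genes, these shares were near or below, except for the F-box genes on the higher side. Among 18 genes of transcellular chaperone signalling 0 passed. *txt-13* had 69.7, 69.7 and 63.3 in ABPS and 38.4, 44.7 and 50.3 in EVPS (log2 fold change 0.60, adjusted p = 0.184), and the aspartyl protease *asp-12* had 410.3, 498 and 457 in ABPS and 936, 902 and 577 in EVPS (log2 fold change -0.79, limma adjusted p = 0.172). Of 15 genes that the study names for the peptide's effect, chosen on these same samples and so no independent evidence, *hsp-16.2* alone passed. At an unadjusted p below 0.05, 3 (20%) were higher and 5 (33.3%) lower, beside 7.44% and 8.37% of all genes.

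**Figure D5:**
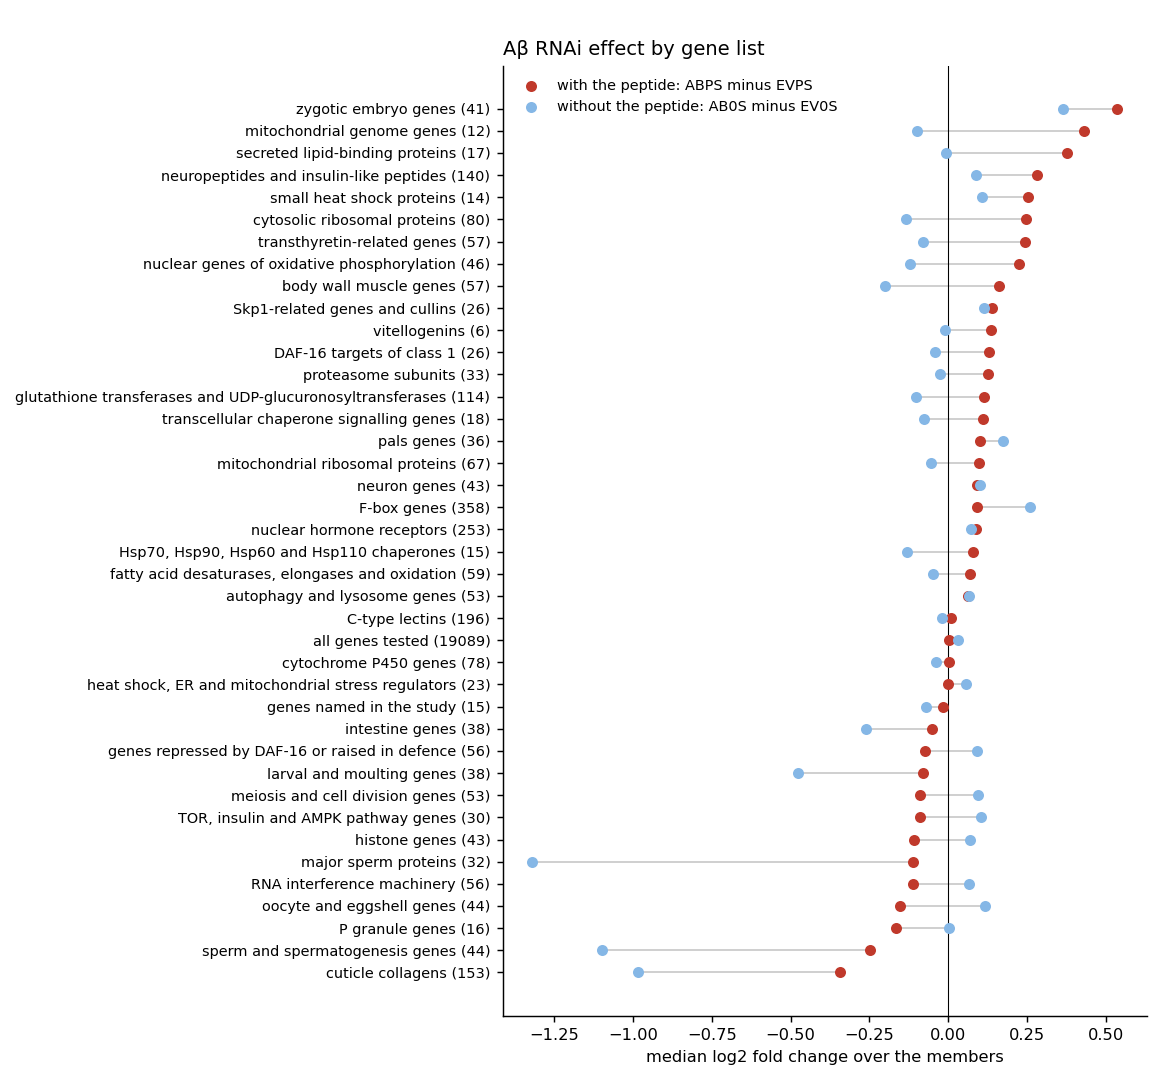
Median log2 fold change of Aβ RNAi over the members of each gene list of at least 6 genes (number of genes in parentheses), with the peptide (red, ABPS minus EVPS) and without it (blue, AB0S minus EV0S), ordered by the first. Zygotic embryo genes have the highest median with the peptide (0.54), cuticle collagens the lowest of those plotted (-0.34), and major sperm proteins lie at -0.11 with and -1.32 without the peptide.

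The number of genes called rested on single libraries and on the model. It was 0 without ABPS replicate 1 (1525 genes at an unadjusted p below 0.05), ABPS replicate 2 (1467), EVPS replicate 1 (1581) or EVPS replicate 2 (1359), and 803 without ABPS replicate 3 and 478 without EVPS replicate 3. Leaving out a library of the groups without the peptide, which enter through the shared estimate of the spread, gave 10 without AB0S replicate 1, 10 without AB0S replicate 2, 11 without AB0S replicate 3, 24 without EV0S replicate 1 and 9 without EV0S replicate 2, but 2923 without EV0S replicate 3. Without the replicate block 920 genes passed. With only the 6 libraries of ABPS and EVPS in the fit 93 passed, and 33 of these were among the 52. The balance of directions moved with the count: 391 genes were higher and 529 lower without the block, 367 and 436 without ABPS replicate 3, 284 and 194 without EVPS replicate 3, 1594 and 1329 without EV0S replicate 3, and 82 and 11 with the 6 libraries. Of the 52 genes, 50 kept their direction in all 26 alternatives, and F59A1.11 and F59E12.3, which a minimum mean of 10 removes, kept it in the 25 that hold them. Each of the 52 passed in 10 to 21 alternatives. *ttr-16*, *lbp-2*, *ttr-24*, Y51F10.7, *heh-1*, *zig-7*, ZC581.3 and F10G2.1 passed in 21. An exact permutation test of a single gene in 3 libraries against 3 cannot give a p below 0.1.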

How the data were processed

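The data are RNA-seq values of 12 libraries of whole worms, 3 per group, with groups and replicate numbers from the labels. Per the submitters' processing notes and the study's methods, the authors trimmed the reads (cutadapt 2.10), aligned them to WBcel235 (TopHat2 2.1.1), counted them per gene (HTSeq 2.01), normalized the counts with DESeq2 1.36.0 and corrected them for the 3 repeats by a method that is not given in the sources used here. The deposited values are a score of this kind on a linear scale, 307 of 229068 are below 0 and were set to 0, and a test for read counts was not used. The strand setting of the counting is not given in the sources used here, so overlapping genes are uncertain, and no column of values was left out. Gene positions are those of Ensembl 115 (WBcel235), which holds 19085 of the 19089 genes.

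Linear models on log2(value + 1), with terms for group and replicate number, were fitted to all 12 libraries in limma 3.58.1 (R 4.3.3, eBayes with trend), since the study corrects for its repeats. Contrasts were ABPS minus EVPS, AB0S minus EV0S and their difference, two-sided, with Benjamini-Hochberg adjustment over all genes and calls at an adjusted p below 0.1. On this scale the fold change of a gene with low values comes out too small. Deviations from the group means correlated at -0.289, -0.0760 and 0.0146 in the 3 same-numbered ABPS and EVPS pairs, and at 0.0537 on average across numbers, after the authors' own correction. Nothing in the labels says that the repeats are more than separate samples, although the study calls them independent.

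Genes named are the 12 in each direction with the smallest p (mean value of at least 10, 1 direction in all 3 pairs), *unc-54*, *rol-6*, *apl-1*, the members of each list that passed (otherwise up to 2 in each direction with the smallest p), and 5 in each direction for the difference. Other called genes, *hsp-16.41*, *hsp-16.11*, *hsp-17* and *lbp-3* are outside that rule and were picked once their values were known, as were the *ttr* and the *far* and *lbp* groups. The comparison and all gene lists were chosen with earlier results of these data known. Alternatives were no replicate block, only the 2 groups compared, pseudocounts of 0.1 and 5, a minimum mean of 1 or 10, quantile normalization, TMM factors (trims of 30% and 5%), robust eBayes, eBayes without the trend, an adjusted p below 0.05 and each library left out. Added after seeing the data were keeping values below 0, the 2 groups with no replicate block, and a fit without the EV0S group. The fits were tested on simulated data. Tables and plots were made with matplotlib 3.10.9, scipy 1.17.1, numpy 2.4.6 and pandas 2.3.3 in Python 3.11.15.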

Additional observations from a re-analysis of the deposited data

Results flagged for a closer look

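The effect of Aβ RNAi differed between worms with and without the peptide by the test of the difference itself in 569 genes (limma adjusted p below 0.1). Among the genes that the text names, the difference (ABPS minus EVPS, less AB0S minus EV0S, on the log2 scale) was above 0 for Y51F10.7 (0.82), *rol-6* (0.69), *unc-95* (0.63), *lgc-34* (0.69), *wrk-1* (0.39), C05D9.3 (0.63), F47B7.1 (0.47), F33C8.4 (0.82), F59A1.11 (2.45), C15F1.1 (0.80), *cnc-8* (0.74) and T01D1.4 (0.59). It was below 0 for T23B12.6 (-0.58), *cil-1* (-0.54), Y4C6A.3 (-0.73), R11A8.1 (-0.43), *rlbp-1* (-0.52), T16G1.7 (-0.95), T21C9.13 (-0.57), C50E3.12 (-0.74), T09B9.1 (-0.54), *dod-3* (-1.33), *cup-15* (-0.54), *sid-1* (-0.67), *rrf-1* (-0.48), *atg-18* (-0.39), *rict-1* (-0.51) and *daf-2* (-0.53). F59A1.11 has a mean value below 10.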

How the results depend on the processing

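With the peptide, 52 genes passed. Pseudocounts, filters on low values, TMM factors, quantile normalization, robust eBayes and keeping values below 0 gave 38 (35 higher and 3 lower, with a pseudocount of 0.1) to 68. After quantile normalization 52 passed, of which 37 were among the 52 of the main fit. The count was 920 with no replicate block, 93 with only the 2 groups compared, 2766 with those 2 groups and no replicate block, 2033 without the EV0S group, 9 at an adjusted p below 0.05 and 0 by eBayes without the trend (smallest adjusted p 0.1195, with 2521 genes at an unadjusted p below 0.05). Leaving out 1 library gave 0 to 2923.

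Without the peptide, 2114 genes passed, and 3380 with no replicate block, 791 with only the 2 groups, 1100 after quantile normalization, 1030 without the trend, 656 at an adjusted p below 0.05, and 10 to 6524 with 1 library left out. TMM factors gave 2982, of which 1263 were higher and 1719 lower, beside 538 and 1576 as reported. For the difference of the effects, 569 became 909 with a mean of at least 10, 1785 with no replicate block, 1304 with TMM factors, 922 after quantile normalization, 0 without the trend (2794 at an unadjusted p below 0.05), 0 at an adjusted p below 0.05, and 0 to 4908 with 1 library left out. The cause of these shifts was not tested. List medians moved by under 0.1 with TMM factors, and 4 moved by 0.1 or more after quantile normalization. The depth behind the values is unknown, so no limit from counting error can be given.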
